A study of Mus musculus with 6 samples.

Results

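The 28 genes described here make cholesterol and fatty acids or control that synthesis, 18 in a sterol branch and 10 in a fatty acid branch. They were taken by name from the arrays, Msmo1 and Me1 under their older names Sc4mol and Mod1, and each gene was read from the brightest of its probes if that probe was well above background on at least 3 of 6 arrays. All 28 met this condition, on 6 of 6 arrays each, among 20237 genes that could be compared.

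Gene expression in the whole lung of naive male mice, aged 8 weeks, was compared between 3 wild-type animals, numbered 11, 12 and 13, and 3 knockout animals lacking Nogo-A and Nogo-B, numbered 1, 11 and 12. Nogo-A and Nogo-B are the long proteins encoded by Rtn4, a reticulon gene, and the series concerns Nogo in asthma, though these lungs had received no challenge. The labels describe each lung as an individual biological replicate. The strain and the allele are not given in the sources used here. RNA of each lung was labelled with Cy3 and hybridised to its own array of 60-base probes. All values are log2 signals relative to the 75th percentile of the same array, and every difference between genotypes is knockout minus wild type. Levels are compared between lungs for 1 probe at a time, never between probes, except that signals of marker genes are also summed within a lung.

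Cells build cholesterol from acetyl-CoA through mevalonate, isoprenoids and squalene, and build fatty acids from the same acetyl-CoA through malonyl-CoA. Both routes are switched on by the sterol regulatory element binding proteins, of which SREBP2 (Srebf2) mainly drives the sterol genes and SREBP1 (Srebf1) the fatty acid genes. When membrane cholesterol is plentiful, Insig proteins hold these factors in the endoplasmic reticulum. In the lung, alveolar type 2 cells use both routes to make the lipids of surfactant.

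Promoter stretches are shown for members whose levels in each lung are given below, because sterol genes share short elements that SREBP2 and its partner factors are known to bind. RefSeq promoters (GRCm38, 250 bases before to 50 after a transcript start) were found for 21 of the 28 members, and Sqle, Fdps, Fdft1, Stard4, Scd1, Scd2 and Fads1 had no entry. Capitals mark the motif searched, on either strand, and each stretch reads 5′ to 3′ along the gene.
Hmgcs1, a TCACNCCAC sterol element, chr13:119690189-119690247, plus strand: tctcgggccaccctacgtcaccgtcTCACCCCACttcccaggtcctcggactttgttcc
Hmgcs1, ATTGG and GGGCGG, chr13:119690281-119690335, plus strand: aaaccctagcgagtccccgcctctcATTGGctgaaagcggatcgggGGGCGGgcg
Insig1, ATTGG and GGGCGG, chr5:28071171-28071225, plus strand: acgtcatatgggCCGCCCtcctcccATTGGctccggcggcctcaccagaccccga
Srebf2, ATTGG, chr15:82147109-82147163, plus strand: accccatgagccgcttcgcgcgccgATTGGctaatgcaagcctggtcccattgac
Cyp51, ATTGG, chr5:4104698-4104751, minus strand: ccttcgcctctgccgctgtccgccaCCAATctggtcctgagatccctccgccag
Fasn, overlapping ATTGG matches on both strands, chr11:120824577-120824631, minus strand: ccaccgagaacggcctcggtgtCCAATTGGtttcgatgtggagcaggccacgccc

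The sterol element TCACNCCAC began 137 bases before the start of Hmgcs1 and was found in 1 of 14 sterol promoters and 0 of 7 fatty acid promoters, against 1.44% of 27025 genes with a promoter. ATTGG, the core of the NF-Y site, was present in 13 of 14 sterol and 4 of 7 fatty acid promoters, against 41.1% of all genes. GGGCGG, the core of an Sp1 site, was present in 14 of 14 and 4 of 7, against 38.2%. The E-box CACGTG was present in 3 of 14 and 0 of 7, against 8.09%. These are matches of letters in a window and show no binding.

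The arrays had been scanned on 2 days. Day 1 held knockouts 1 and 11 with wild type 13, and day 2 held wild types 11 and 12 with knockout 12. The arrays of day 2 also make up slide 3, so that this day and this slide cannot be told apart. Over all genes, arrays of 1 day correlated at 0.972 to 0.994 and arrays of different days at 0.950 to 0.965. On each array 68.9% to 78.0% of probes exceeded background, and precision is limited by the small number of lungs. A probe of Rtn4 (AK047982) was above background in 3 of 3 wild-type and 0 of 3 knockout lungs. The brightest Rtn4 probe was above background in all 6 lungs, at 1.59, 1.53 and 2.28 in wild types 11, 12 and 13 and at 1.01, -0.79 and -1.87 in knockouts 1, 11 and 12, so that knockout 1 lay nearest to the wild type. Where these probes lie relative to the deleted part was not established. The lung markers Sftpc, Scgb1a1 and Ager were measured in both groups. The liver marker Ttr and the brown fat markers Ucp1 and Elovl3 did not exceed background in any lung. Other markers of these tissues did: the liver markers Alb and Ahsg in 6 lungs and Fgb in 3. Of the listed brown fat markers, Cidea, Cox7a1 and Cox8b exceeded it in 6, and whether they came from brown fat was not tested. In whole lung, fewer cells of a type and less RNA per cell cannot be told apart.

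Synthesis genes did not differ detectably between knockout and wild-type lungs in either branch. At an adjusted p under 0.05 in limma, 0 of 28 members were called, where 0.0% of all genes were. At an unadjusted p under 0.05 there were again 0 of 28, where 0.954% of all genes reached it, and the smallest p, for Nsdhl, was 0.172 (adjusted p = 0.9997). The unadjusted count was 8 with array weights, 7 within scan day 2 and 4 without wild type 13, where 20.4%, 19.7% and 7.39% of all genes reached it. The fitted difference was below 0 for 17 members and above 0 for 11, against 45.5% below 0 among all genes. The median difference was -0.09 in the sterol branch and -0.04 in the fatty acid branch, beside 0.02 over all genes. By the brightest probes the groups overlapped for all 28 members, where 4.19% of all genes had groups that did not overlap. The next brightest probes of Nsdhl and Me1 had groups that did not overlap.

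The precision differed between members. Standard errors ran from 0.14 for Fdft1 to 0.95 for Stard4. The 95% interval of the difference lay within 1 log2 unit of 0 for 23 members, 14 of 18 in the sterol branch and 9 of 10 in the fatty acid branch, against 68.0% of all genes. A change of more than 2-fold lies outside the interval for those 23.

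**Figure D1:**
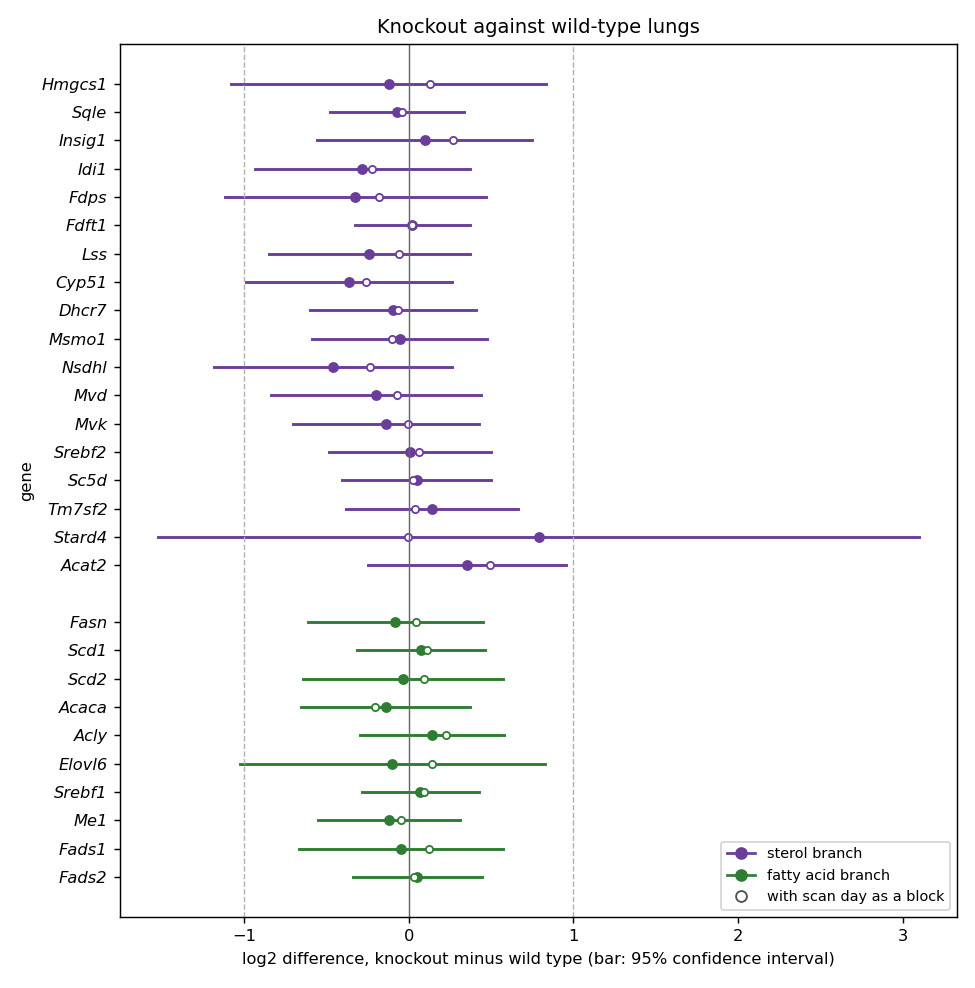
Each filled point is the log2 difference of a gene, knockout minus wild type, with its 95% confidence interval as a bar, and each open point is the difference with scan day as a block. All 28 intervals without the block include 0, the widest is that of Stard4, and dashed lines mark 1 log2 unit.

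Srebf2, the gene of SREBP2, stood at 4.13, 4.03 and 3.58 in wild-type lungs 11, 12 and 13 and at 4.02, 3.92 and 3.81 in knockout lungs 1, 11 and 12. Its difference was 0.0056 ± 0.20 (SE), and the 3 knockout lungs lay between the lowest and the highest wild-type lung. This was its brightest probe. The other Srebf2 probes gave differences of -0.10, 0.30 and, for a dim probe, 0.14. For each of those other probes wild type 13 was the highest wild-type lung. Insig1, which retains SREBP in the endoplasmic reticulum and is itself an SREBP target, stood at -0.75, -0.71 and -1.54 in wild-type lungs and at -1.03, -0.92 and -0.76 in knockout lungs. As for the brightest Srebf2 probe, wild type 13 was the lowest lung and the other wild-type lungs were the highest. The knockout lungs lay between them (difference 0.10 ± 0.27). By the other, dimmer Insig1 probe, knockout 11 was the highest lung (-2.98) and knockout 12 the lowest (-3.51), with a difference of -0.01.

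Hmgcs1, the synthase that makes HMG-CoA at the head of the mevalonate route, stood at 3.78, 3.83 and 2.46 in wild-type lungs 11, 12 and 13 and at 3.29, 3.07 and 3.34 in knockout lungs 1, 11 and 12. The wild-type lungs held both the highest and the lowest value, 2.59-fold apart, and all knockout lungs lay between them (difference -0.12 ± 0.39). Downstream of it, Mvk and Mvd, which convert mevalonate to isopentenyl diphosphate together with a further kinase, differed by -0.14 and -0.20. Idi1, the isomerase of that product, and Fdps, which joins isoprenoids to farnesyl diphosphate, differed by -0.28 and -0.33. The array files place both Idi1 probes on chromosome 2 of mm7, whereas RefSeq places the Idi1 promoter on chromosome 13 of GRCm38, so what these probes measure is uncertain. Acat2, the thiolase that supplies acetoacetyl-CoA before Hmgcs1, had a fitted difference of 0.35 ± 0.25. None of these 5 had a p below 0.201.

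Fdft1, squalene synthase, was the steadiest member, with a range of 0.08 over the 6 lungs. Sqle, the squalene epoxidase that sets the pace after it, stood at 1.04, 1.16 and 0.85 in wild-type lungs 11, 12 and 13 and at 1.07, 0.85 and 0.91 in knockout lungs 1, 11 and 12. The Sqle values of both groups covered nearly the same span (difference -0.07 ± 0.17). Cyp51, which removes a methyl group from lanosterol, stood at -0.79, -0.90 and -1.55 in wild-type lungs and at -1.21, -1.62 and -1.49 in knockout lungs. Wild types 11 and 12 were the highest lungs for Cyp51, and wild type 13 lay among the knockout lungs (difference -0.36 ± 0.26, unadjusted p = 0.206).

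Nsdhl, a dehydrogenase that acts with Msmo1 in removing the methyl groups left after the Cyp51 step, had the largest fitted decrease by its brightest probe. It stood at -0.43, -0.45 and -0.93 in wild-type lungs 11, 12 and 13 and at -1.36, -1.33 and -0.50 in knockout lungs 1, 11 and 12. Knockout 12 lay with the wild-type lungs of its scan day, and the other knockout lungs were the lowest (difference -0.46 ± 0.30, and -0.24 with scan day as a block). The other Nsdhl probes gave differences of -0.47, -0.32 and, for a dim probe of another transcript record (AK156993), 0.10. By the first of these, wild-type lungs stood at -0.97, -1.01 and -0.88 and knockout lungs at -1.26, -1.81 and -1.21, without overlap. By the others the groups overlapped. Lss, the synthase that makes lanosterol, had a difference of -0.24. The remaining members from lanosterol to cholesterol, Tm7sf2, Msmo1, Sc5d and Dhcr7, had differences from -0.10 for Dhcr7 to 0.14 for Tm7sf2.

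Stard4, which carries cholesterol between membranes, had the largest fitted increase, 0.79 ± 0.95. Its brightest probe stood at -2.79, -2.68 and -0.65 in wild-type lungs 11, 12 and 13 and at 0.13, -0.85 and -3.03 in knockout lungs 1, 11 and 12. The 3 lungs of scan day 1 were high and the 3 of day 2 low, in both genotypes. The other probes of Stard4 did not show this: they differed by -0.05 and -0.10 between genotypes, and the brighter of them stood at -2.49, -2.47 and -3.41 in wild-type lungs and at -2.53, -2.91 and -3.10 in knockout lungs. With this probe in place of the brightest, wild type 13 was again the lowest lung, as for the brightest probes of Hmgcs1, Insig1 and Srebf2. By the dimmest Hmgcs1 probe wild type 13 was instead the highest lung (-3.82).

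**Figure D2:**
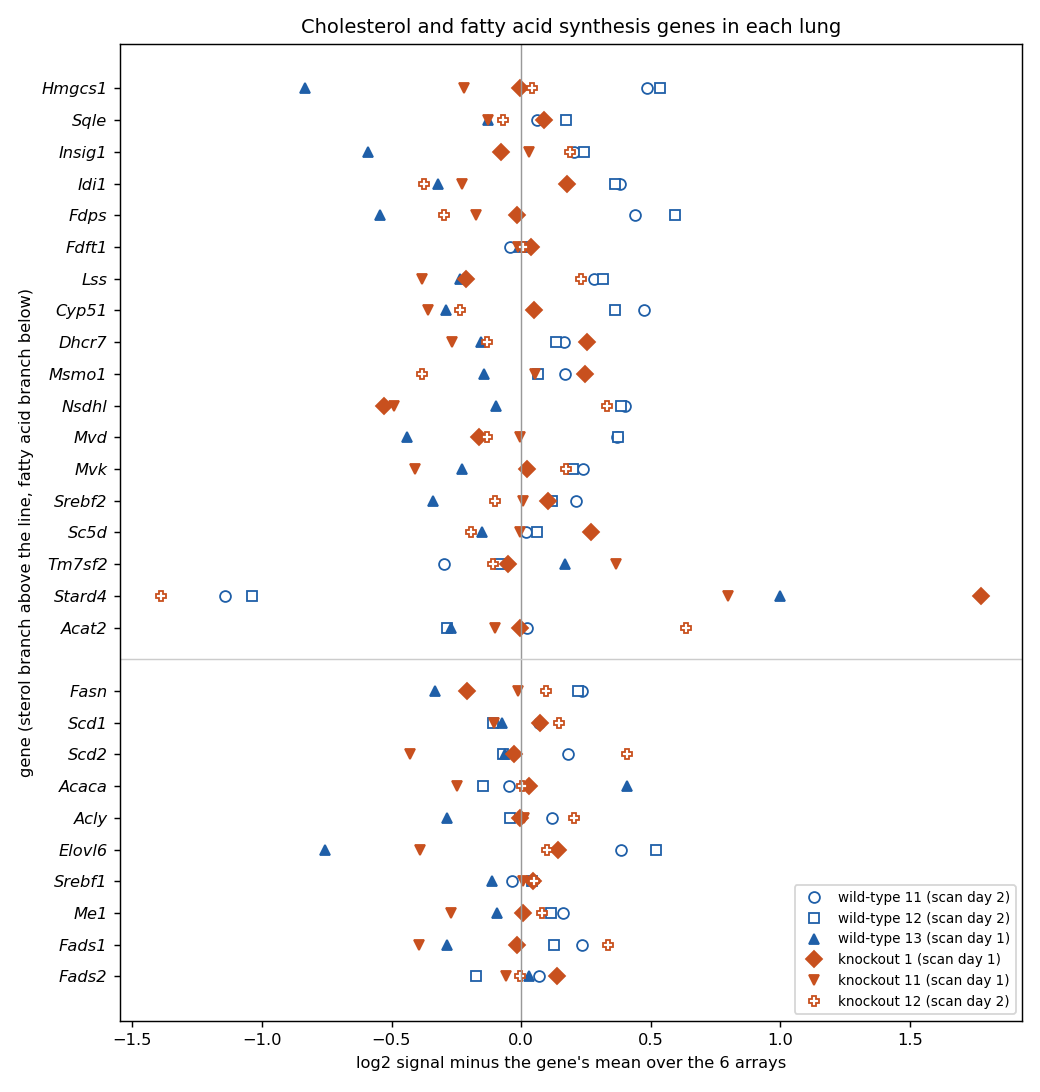
Each row is a gene and each symbol a lung, plotted as its log2 signal minus the mean of that gene over the 6 arrays; blue marks wild type, orange knockout, filled symbols scan day 1 and open symbols day 2. Hmgcs1 spans 1.37 and Stard4, read from its brightest probe, 3.16, while Fdft1 spans 0.08.

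Srebf1, the gene of SREBP1, was nearly level over the lungs. It stood at 3.52, 3.60 and 3.45 in wild-type lungs 11, 12 and 13 and at 3.61, 3.57 and 3.61 in knockout lungs 1, 11 and 12. Its range of 0.16 was the narrowest of the fatty acid branch, and its 95% interval ran from -0.29 to 0.43. Acly, which releases acetyl-CoA from citrate in the cytosol, stood at 1.20, 1.04 and 0.79 in wild-type lungs and at 1.08, 1.09 and 1.28 in knockout lungs, a difference of 0.14 ± 0.18. Acaca, the carboxylase that makes malonyl-CoA, stood at -1.30, -1.40 and -0.84 in wild-type lungs and at -1.22, -1.50 and -1.25 in knockout lungs. Wild type 13 was the lowest lung for Acly and the highest for Acaca, and the groups overlapped for both.

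Fasn, the synthase that builds palmitate, stood at 6.48, 6.46 and 5.91 in wild-type lungs 11, 12 and 13 and at 6.03, 6.23 and 6.34 in knockout lungs 1, 11 and 12. The highest and the lowest values were again wild-type (difference -0.08 ± 0.22). Me1, the malic enzyme that supplies NADPH for this synthesis, stood at 1.59, 1.54 and 1.33 in wild-type lungs and at 1.43, 1.16 and 1.51 in knockout lungs, and knockout 11 was its lowest lung (difference -0.12 ± 0.18).

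Elovl6, which lengthens palmitate, varied most within the fatty acid branch. It stood at 0.41, 0.55 and -0.73 in wild-type lungs 11, 12 and 13 and at 0.17, -0.36 and 0.13 in knockout lungs 1, 11 and 12, so that the order of the lungs was that of Hmgcs1 at both ends. Scd1, a desaturase that makes oleate, stood at 4.90, 4.72 and 4.76 in wild-type lungs and at 4.90, 4.72 and 4.97 in knockout lungs, a difference of 0.07 ± 0.16. Fads1, a desaturase of polyunsaturated fatty acids, stood at 2.06, 1.95 and 1.54 in wild-type lungs and at 1.81, 1.43 and 2.16 in knockout lungs. For Fads1 the high lungs were the 3 of scan day 2, in both genotypes. Scd2 and Fads2, the other desaturases, differed by -0.03 and 0.05 between genotypes.

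Lungs differed in the level of a branch as a whole. The median deviation of the sterol genes from their own means was 0.21, 0.19 and -0.23 in wild-type lungs 11, 12 and 13 and 0.03, -0.11 and -0.10 in knockout lungs 1, 11 and 12. Wild types 11 and 12 had 15 of 18 sterol genes above their own mean each, and wild type 13 had 2 of 18. Of all 20237 genes, 9443, 9349 and 10809 were above their own mean in wild types 11, 12 and 13. Averaged over lungs, the sterol medians gave 0.05 ± 0.25 in wild-type lungs and -0.06 ± 0.08 in the knockout (SD, n = 3 each). The spread among the wild-type lungs was thus larger than the gap between the genotypes. The fatty acid medians were 0.14, 0.00021 and -0.10 in wild-type lungs and 0.02, -0.18 and 0.10 in knockout lungs, with means of 0.01 ± 0.12 and -0.02 ± 0.14. The sterol median minus the fatty acid median was 0.04 ± 0.16 in wild-type lungs and -0.04 ± 0.14 in the knockout, so the balance of the branches differed by less than its spread.

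**Figure D3:**
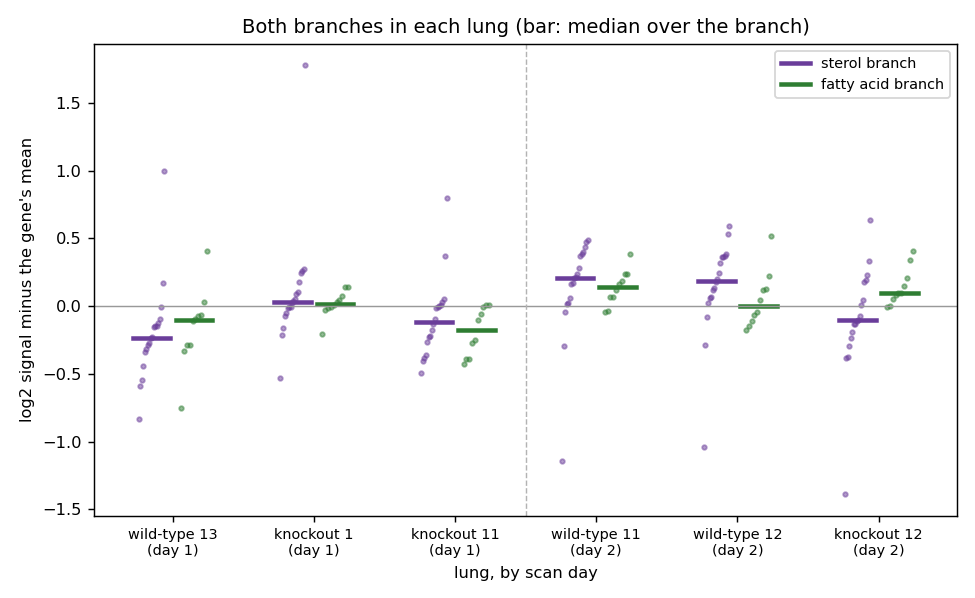
Each point is a gene in a lung, as its log2 signal minus the mean of that gene over the 6 arrays, and each bar is the median of a branch; lungs are ordered by scan day, divided by the dashed line. The sterol median was lowest in wild type 13 (-0.23) and highest in wild type 11 (0.21).

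Because both scan days held both genotypes, the genotypes were also compared within each day. With scan day as a block, the branch medians were -0.02 for sterol and 0.09 for fatty acid genes, and 1 of 28 members reached an unadjusted p under 0.05, Acat2 at 0.49 (unadjusted p = 0.0494, adjusted p = 0.9994), where 2.19% of all genes did. Within day 1, knockouts 1 and 11 against wild type 13, the sterol median was 0.25, with 15 of 18 genes above 0. Within day 2, knockout 12 against wild types 11 and 12, it was -0.25, with 15 of 18 below 0. The fatty acid median was 0.07 within both days. Over all genes the median was -0.04 within day 1 and 0.09 within day 2. Each day has a single lung of 1 genotype, so the within-day differences rest on wild type 13 and on knockout 12.

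This turn of sign was tested as the interaction of genotype and day. It passed the adjusted threshold for 0 of 28 members and 0.0% of all genes. An unadjusted p under 0.05 was reached by 6 members, where 11.6% of all genes reached it. All 6 were sterol genes with a lower difference on day 2, and 3.9% of all genes reached that p with a lower difference. They were Fdps (-1.26, unadjusted p = 0.00836), Hmgcs1 (-1.19, unadjusted p = 0.0103), Idi1 (-1.04), Mvd (-0.86), Msmo1 (-0.79) and Srebf2 (-0.66). These are values of brightest probes, and Mvd and Msmo1 had no other. The next brightest probes of Hmgcs1 and Idi1 turned sign in the same way. By the other Fdps probe, wild type 13 (-1.61) lay between knockouts 1 and 11 (-1.90 and -1.31). By the next brightest Srebf2 probe, wild type 13 (0.25) lay above both knockouts of its day (0.12 and -0.11). The lowest adjusted p was 0.381. This count depended on single lungs, with 1 member without wild type 11, 0 without wild type 12, 9 without knockout 1 and 11 without knockout 11. All genes reached it at 3.52%, 4.41%, 31.2% and 25.2% in those fits, and it could not be fitted without wild type 13 or knockout 12.

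Patterns noticed after the values had been seen are given as counts. Every knockout lung was above the wild type within day 1 and below it within day 2 for 8 of 18 sterol and 2 of 10 fatty acid genes, against 13.6% of all genes. Wild types 11 and 12 were the highest lungs for 10 of 18 and 3 of 10, against 11.3%. Wild type 13 was the lowest lung for 5 of 18 and 4 of 10, against 19.1%.

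**Figure D4:**
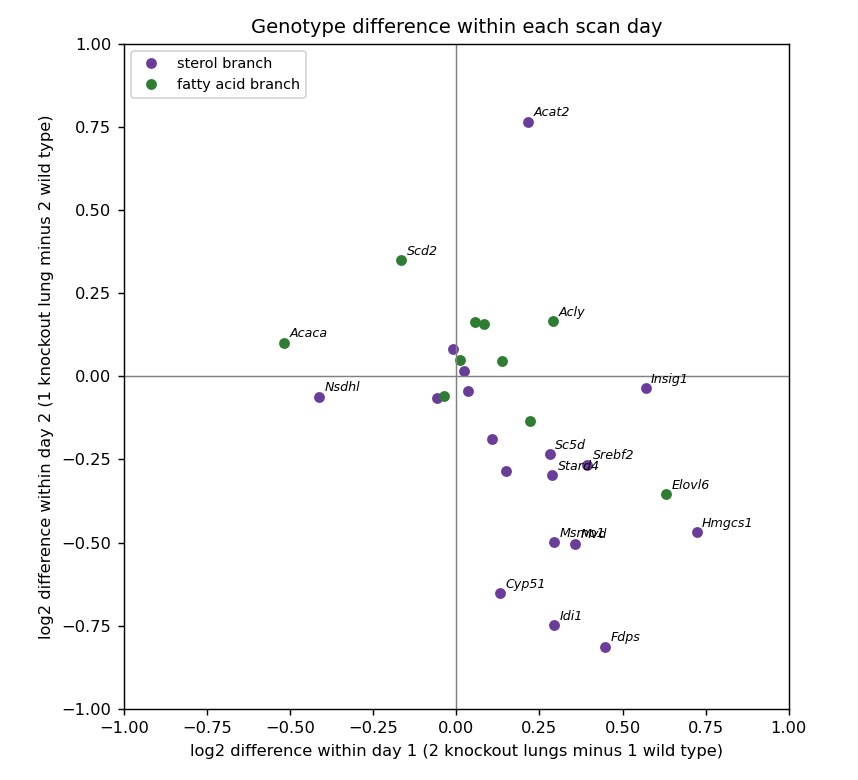
Each point is a gene, with its log2 difference within scan day 1 on the horizontal axis and within day 2 on the vertical axis. The sterol genes lie mostly at the lower right, with medians of 0.25 and -0.25. The fatty acid genes have a median of 0.07 on both axes and run from -0.52 (Acaca) to 0.63 (Elovl6) within day 1.

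Between the scan days, with genotype in the model, 1 of 28 members passed the adjusted threshold, where 10.9% of all genes did and 8.74% of all genes in the downward direction. This was Stard4 by its brightest probe, at -2.38 ± 0.32 for day 2 minus day 1 (adjusted p = 0.0126), and the next brightest probe of that gene gave 0.28 ± 0.33 (adjusted p = 0.645). No member passed without wild type 13, where 3.18% of all genes did, and without knockout 12 the member called was Hmgcs1, where 5.15% did. The fitted day difference was above 0 for 21 of 28 members, against 53.9% of all genes, with a median of 0.24 beside 0.04 over all genes. By their brightest probes, Nsdhl (0.66, adjusted p = 0.0506) and Lss (0.53, adjusted p = 0.0678) were nearest to the threshold among the higher ones. Their other probes gave 0.11, 0.41 and -1.54 for Nsdhl and -0.41 and -0.02 for Lss. Scaling to the array median moved the all-gene day median to 0.34, so the signs of the day differences hold only relative to the scaling.

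Other probes of the same genes often gave another day difference. Of 55 probes for the members, 54 were well above background on at least 3 arrays, and 16 genes had more than 1 such probe. Among their 26 other probes, 13 had the opposite sign of day difference to the brightest, and 19 were lower than it. Gaps above 1 occurred in Hmgcs1, Nsdhl and Stard4. For Hmgcs1, the brightest probe gave 0.75, another probe of the same transcript 0.94, and a dim probe of a different transcript record (AK078743) -1.07. Between genotypes the probes of Hmgcs1 gave -0.12, -0.18 and 0.0022, and gaps above 0.5 from the brightest probe occurred for 3 probes, of Nsdhl and Stard4.

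**Figure D5:**
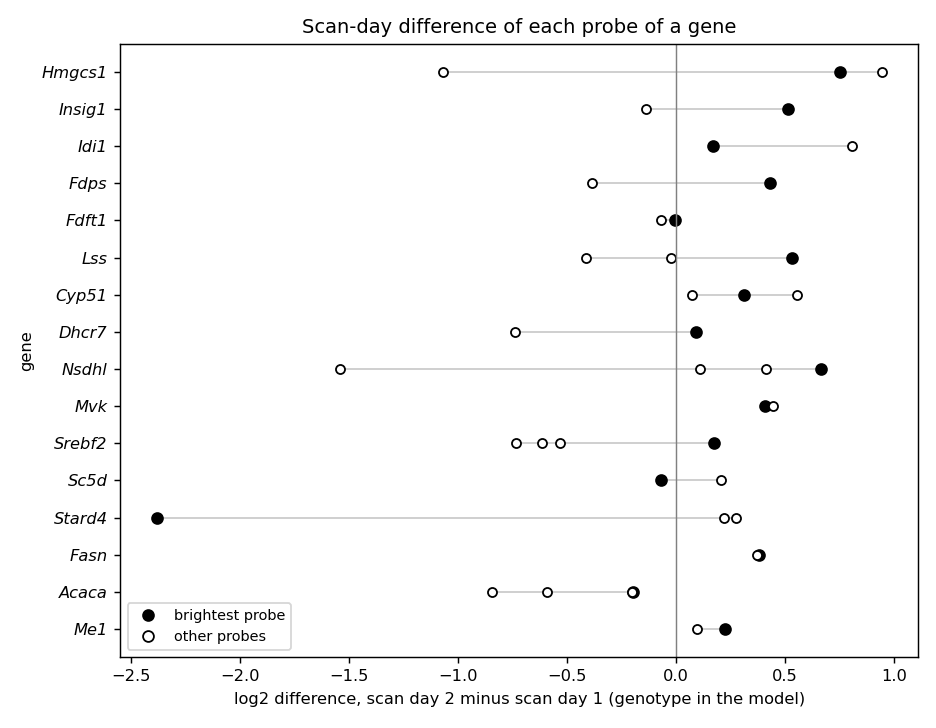
For each of the 16 genes with more than 1 measured probe, filled points show the log2 difference between scan days of the brightest probe and open points that of the other probes. The brightest probe of Stard4 lies at -2.38 and its other probes at 0.28 and 0.22.

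The neighbouring genes of both pathways were likewise without calls between genotypes. Among 10 other genes of sterol synthesis and SREBP processing, 0 were called and the median difference was -0.02. Hsd17b7, a sterol enzyme, fell by 1.97 on day 2 (adjusted p = 0.0160) and differed by 0.78 ± 0.80 between genotypes. Among 16 other genes of fatty acid and triglyceride synthesis, 0 were called. Dgat2, which completes triglycerides, had a difference of -0.69 ± 0.25 (unadjusted p = 0.0316, adjusted p = 0.9997), and Gpam differed by 0.86 between days (adjusted p = 0.0331). Neither 7 oxysterol receptor and cholesterol export genes (median 0.04), 6 fasting genes (0.13) nor 11 measured clock genes (0.07) held a call between genotypes. Pdk4, a kinase induced by fasting, had a difference of 0.39 ± 0.16 (unadjusted p = 0.0456, adjusted p = 0.9997), and the clock gene Nr1d1 a day difference of -0.84 (adjusted p = 0.0251).

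Markers of other cell types were read beside these results. Of 9 white adipocyte markers, 8 were measured and all 8 had a fitted difference below 0, against 45.5% of all genes. Their median was -2.09, and 4 reached an unadjusted p under 0.05, among them Pck1 (-3.09), Cfd (-2.75) and Adipoq (-2.70). Of all genes 0.954% reached that p. None of the 8 markers passed the adjusted threshold. Their summed linear signal, in units of the 75th percentile, ran from 10.6 to 40.3 in wild-type lungs and from 8.69 to 41.5 in the knockout. Knockout 1 took 34.2 of its 41.5 from Car3, and without Car3, left out after the values were seen, the sums were 9.88 to 35.4 and 7.32 to 10.7. The median deviation of the adipocyte markers was 1.52, -0.63 and 2.44 in wild types 11, 12 and 13 and -1.30, -0.24 and -2.13 in knockouts 1, 11 and 12. The 10 alveolar type 2 markers had a median difference of 0.07. Their sums, in which Sftpc (difference 0.45 ± 0.21) had the largest signal in every lung, ran from 490 to 627 in wild-type lungs and from 573 to 796 in the knockout. Among them Sftpd, Slc34a2 and Etv5 were higher on day 2 at an adjusted p under 0.05, as were 436 of all 20237 genes. The median deviation of these type 2 markers was lowest in wild type 13, at -0.30, and highest in knockout 12, at 0.30. The 7 alveolar macrophage markers had a median of -0.01, with Marco and Siglecf higher on day 2 at the same threshold. Their median deviation was likewise lowest in wild type 13 (-0.51) and highest in knockout 12 (0.43). The sterol median was also lowest in wild type 13 (-0.23), but it was highest in wild type 11 (0.21) and -0.10 in knockout 12. All 9 neutrophil markers were fitted lower in the knockout, with a median of -1.56. Of these, 3 reached an unadjusted p under 0.05, against 0.954% of all genes. The neutrophil median was 0.29 within day 1 and -2.84 within day 2. The 3 measured hepatocyte markers had a median of -0.82. The 3 measured genes listed as brown adipocyte markers had a median of 0.94, with Cox8b at 0.99, Cox7a1 at 0.94 and Cidea at -0.14. The part of these cells in the values of the synthesis genes was not tested.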

How the data were processed

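Amplified total RNA of 6 lungs carried the dye Cy3 on Agilent arrays, per the labels' protocols. The deposited scanner files hold an intensity per spot, the processed signal, which is background-corrected and not scaled between arrays, made, per the file headers, by Feature Extraction version 9.5.1.1. The submitters' processing notes name Agilent Feature Extraction 9.1. The authors' deposited table holds log2 values with array medians of 8.087 to 8.090, used as an alternative, with a scaling method not given in the sources used here.

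There were 43379 spots besides controls on an array. Spots flagged as outliers (48 to 99 per array) were left out, spots of a probe averaged, and 41144 of 41174 probes used. RefSeq (GRCm38) named 32691 probes, and 8453 kept the file's name. The processed signal was divided by its 75th percentile on the array (1148 to 2488) and taken as log2. Scan day and slide were read from the files. Genotypes, days and their interaction were tested with limma 3.58.1 in R 4.3.3 (lmFit, eBayes, two-sided, Benjamini-Hochberg over 20237 genes), and the fits were tested on simulated data. Python 3.11.15, pandas 2.3.3 and matplotlib 3.10.9 were used.

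The members and lists were chosen with earlier results of these data known. Values in every lung are given for the regulators and rate-setting enzymes (Srebf2, Insig1, Hmgcs1, Sqle, Cyp51, Srebf1, Acaca, Fasn, Scd1), any member at an unadjusted p under 0.05 between genotypes, and the 3 members of each branch with the largest difference between genotypes or days. Of the other lists, up to 3 genes with the smallest p between genotypes could be named. The genes Gpam, Nr1d1, Sftpd, Slc34a2, Marco and Siglecf, were named after their values were seen. Alternatives changed the normalization, background, filter, probe choice, variance model, blocks and arrays.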

Additional observations from a re-analysis of the deposited data

How the results depend on the processing

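No member was called between genotypes, or for the interaction, under any alternative, the interaction not being estimable without wild type 13 or knockout 12. Of 588 member differences under 21 alternatives, 78 had the opposite sign to the value reported, and 34 moved by at least 1 SD between replicates. Acat2 and Acly stayed above 0 and Lss, Me1 and Nsdhl below 0 throughout. The cause of the sign changes was not tested.

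Opposite signs were as follows. With scan day as a block they were 0.13 for Hmgcs1, -0.0041 for Stard4, 0.044 for Fasn, 0.092 for Scd2, 0.14 for Elovl6 and 0.12 for Fads1. Within scan day 1 they were 0.72 for Hmgcs1, 0.11 for Sqle, 0.29 for Idi1, 0.45 for Fdps, 0.13 for Cyp51, 0.15 for Dhcr7, 0.29 for Msmo1, 0.36 for Mvd, 0.035 for Mvk, -0.010 for Tm7sf2, 0.22 for Fasn, 0.63 for Elovl6 and 0.083 for Fads1. Within scan day 2 they were -0.035 for Insig1, -0.27 for Srebf2, -0.23 for Sc5d, -0.30 for Stard4, 0.35 for Scd2, 0.10 for Acaca and 0.16 for Fads1. With slide as a random block they were 0.032 for Hmgcs1, 0.0080 for Mvk, 0.13 for Scd2, 0.10 for Elovl6 and 0.12 for Fads1. Array weights gave -0.20 for Insig1, -0.10 for Srebf2 and 0.027 for Acaca. Quantile normalization gave -0.066 for Srebf2 and -0.0069 for Scd1, and with normexp -0.0035 for Fdft1, -0.018 for Srebf2 and -0.013 for Scd1. Median scaling gave -0.034 for Fdft1, -0.049 for Srebf2, -0.0075 for Sc5d and -0.0036 for Fads2. The authors' values gave -0.042 for Srebf2, -0.011 for Scd1, -0.0083 for Srebf1 and -0.0074 for Fads2. The mean over probes gave 0.095 for Dhcr7. The next brightest probe, an alternative chosen after seeing the data, gave -0.054 for Stard4.

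Leaving out 1 lung at a time gave ranges across 0 of -0.57 to 0.11 for Hmgcs1, -0.18 to 0.24 for Insig1, -0.25 to 0.013 for Dhcr7, -0.19 to 0.12 for Msmo1, -0.29 to 0.028 for Mvk, -0.16 to 0.11 for Srebf2, -0.076 to 0.16 for Sc5d, -0.0084 to 0.26 for Tm7sf2, -0.27 to 0.014 for Fasn, -0.25 to 0.17 for Scd2, -0.25 to 0.026 for Acaca, -0.50 to 0.13 for Elovl6, -0.23 to 0.14 for Fads1 and -0.024 to 0.10 for Fads2. The sterol median ran from -0.19 to -0.017 and the fatty acid median from -0.16 to 0.087.

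The sterol median was 0.25 within scan day 1. The fatty acid median was 0.092 with scan day and 0.091 with slide as a block. The number of members called between days was 2 with quantile normalization (14.0% of all genes), 4 with normexp (14.7%), 6 with median scaling (18.1%), 4 with the authors' values (15%), 2 with genes well above background on all 6 arrays (9.38%), 3 with a trended, robust variance (14.1%), and 0 with the mean over probes (12.5%) or the next brightest probe of Stard4 (10.9%). It was 0 to 1 with 1 lung left out, 0 without wild type 13.

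Numbers 11 and 12 stand in both groups. The labels do not say that a number marks a shared source, and 2 shared numbers are too few to tell from the data. Deviations correlated at -0.25 for the lungs numbered 11, from different scan days, and at 0.42 for those numbered 12, from the same day. With the replicate number as a block 0 members were called, the sterol median was -0.31, and the differences were -0.11 for Insig1, -0.21 for Srebf2 and -0.14 for Sc5d.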
